A study of Mus musculus with 28 samples.

Results

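The genes of glycolysis, of glycogen use and of the response to low oxygen were followed through the healing of a skin wound in the mouse. The set held 39 named genes out of the 29068 in the gene count table, and all 39 passed the filter on low counts that left 18107 genes for testing. Its members were chosen by name and role, not by a threshold on their values, but with earlier results of these data known. Skin was taken from the wound site of C57BL/6J mice that were wild type for the necroptosis effector MLKL (MLKL+/+) and 8 weeks old. The wound was a 6-mm punch through the dorsal skin down to the fascia, made under isoflurane, and no drug and no other genotype entered these libraries. RNA was sequenced from the control, day 0, and from wounds of day 3, day 5, day 7, day 10, day 12 and day 14, with 4 libraries a day and 28 in all. The labels call day 0 the control, but whether it is skin before wounding or tissue taken at injury is not settled by the sources used here. Samples of the wound days were whole tissue, with the scab and the epidermal margin left in.

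Glycolysis breaks glucose down to pyruvate, and lactate dehydrogenase turns pyruvate into lactate where oxygen is short or growth is fast. Several of its steps are run by paired genes, one of them highly expressed in skeletal muscle and the other in most tissues, and glycogen phosphorylase has such muscle and liver forms as well. Under low oxygen the transcription factor HIF-1, whose alpha subunit is encoded by Hif1a, is stabilised as a protein and raises glucose transporters, glycolytic enzymes, lactate exporters and carbonic anhydrases. Wounds are known to be poorly supplied with oxygen while vessels are broken and leukocytes, which rely on glycolysis, enter the tissue.

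Library totals lay between 36706513 and 40655764 counts. The day 0 libraries were the most variable, with a biological coefficient of variation of 26.4% against 5.7 to 10.8% on the later days. Replicates 1 and 4 of day 0 stood apart in their content of skeletal muscle: 12 muscle markers, among them Acta1, Ckm and Myh4, took 4.04% and 4.39% of their counts, whereas replicates 2 and 3 held 2.45% and 2.5%. They also differed from replicates 2 and 3 in other markers. The summed level of dermal fibroblast markers was 4910 and 2880 FPKM (fragments scaled to the library's depth and the gene's length, so that genes can be compared) in replicates 1 and 4 and 11200 and 10800 in replicates 2 and 3. For epidermis these sums were 2760 and 3070 against 1460 and 1540, and for neutrophils 54.0 and 63.3 against 17.6 and 14.9. Which of these contents goes with a member's value cannot be told apart. The changes of the members and of the other pathway genes against day 0 were therefore also computed without replicates 1 and 4, a choice made after the data were seen. Those values are given as shifts below, and beside a result where a call changed or the value moved by over 1.5 times. The female-specific RNA Xist had at most 13 counts in any library and the Y-linked gene Ddx3y at least 2101, although mice of both sexes were used in the study. The markers of dermal fibroblasts and of epidermis were above 0 on every day.

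The sequences before the start sites of the members are shown first because many of them carry the short core that HIF-1 recognises, on the muscle side as well as the ubiquitous side. RefSeq promoters of build GRCm38.p6 (mm10, the build of the deposited files) were found for 36 of the 39 members, in 49 entries, and the 250 bases before each start were searched on both strands. The letters searched were ACGTG and GCGTG, and overlapping matches were each counted. They were found in 79.6% of the 49 entries, against 38.6% of all 32851 promoters in the table. Counted by gene, 31 of the 36 held a match in at least 1 entry. Some genes had several entries that overlap and share matches. GC content was not matched between the members and all promoters, and the difference in shares was not tested. ACGTG alone was in 44.9% of the members' entries and in 16.6% of all promoters. The letters CAGCTG, an E-box that muscle regulators can bind, were in 16.3% and 13% of them. Every match is a description of letters and not a bound site. Below stand a pair of phosphoglycerate mutase genes, a pair of glycogen phosphorylase genes and the genes for the last step and the exit of lactate, each read 5′ to 3′ with matches to ACGTG or GCGTG, on either strand, in capitals.
Pgam1 (chr19:41911621-41911870, plus strand): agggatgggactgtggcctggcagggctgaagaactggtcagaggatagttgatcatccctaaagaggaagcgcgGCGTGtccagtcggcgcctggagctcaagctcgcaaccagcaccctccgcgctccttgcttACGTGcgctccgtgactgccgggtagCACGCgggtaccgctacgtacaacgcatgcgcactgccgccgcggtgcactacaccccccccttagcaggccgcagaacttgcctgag
Pgam2 (chr11:5803797-5804046, minus strand): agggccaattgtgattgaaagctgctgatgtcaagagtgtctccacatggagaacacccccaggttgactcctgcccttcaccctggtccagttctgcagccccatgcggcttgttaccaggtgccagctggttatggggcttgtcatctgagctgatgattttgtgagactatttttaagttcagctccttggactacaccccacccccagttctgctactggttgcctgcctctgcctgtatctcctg
Pygl (chr12:70227684-70227933, minus strand): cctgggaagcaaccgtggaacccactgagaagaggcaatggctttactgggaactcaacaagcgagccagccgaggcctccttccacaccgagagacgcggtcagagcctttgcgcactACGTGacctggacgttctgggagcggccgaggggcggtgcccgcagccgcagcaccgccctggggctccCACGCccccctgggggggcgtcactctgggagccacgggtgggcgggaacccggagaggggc
Pygm (chr19:6384158-6384407, plus strand): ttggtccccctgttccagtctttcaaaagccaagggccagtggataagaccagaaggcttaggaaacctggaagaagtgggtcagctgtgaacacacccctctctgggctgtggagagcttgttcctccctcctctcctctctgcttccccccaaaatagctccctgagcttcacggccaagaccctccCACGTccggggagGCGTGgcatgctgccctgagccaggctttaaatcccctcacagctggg
Ldha (chr7:46845554-46845803, plus strand): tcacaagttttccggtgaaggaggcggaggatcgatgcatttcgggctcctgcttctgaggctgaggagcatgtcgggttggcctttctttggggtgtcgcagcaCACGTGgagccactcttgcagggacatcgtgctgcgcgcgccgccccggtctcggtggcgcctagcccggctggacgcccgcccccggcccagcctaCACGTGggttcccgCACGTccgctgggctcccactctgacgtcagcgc
Slc16a3 (chr11:120948817-120949066, plus strand): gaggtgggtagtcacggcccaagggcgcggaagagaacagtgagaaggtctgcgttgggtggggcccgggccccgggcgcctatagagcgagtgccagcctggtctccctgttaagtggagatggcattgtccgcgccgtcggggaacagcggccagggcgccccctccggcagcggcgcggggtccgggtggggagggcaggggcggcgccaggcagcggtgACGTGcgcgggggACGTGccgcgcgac
Pgam2, the muscle mutase, held none of these letters but one CAGCTG, and its ubiquitous partner Pgam1 held 3 matches. Pygm, the muscle phosphorylase, held 2 matches and 2 CAGCTG, while Pygl, the liver form, held 2 matches and no CAGCTG. Ldha, which makes lactate, held 5 matches in the entry shown, and Slc16a3, which carries lactate out of the cell, held 2. In the isoform pairs described next, 3 of the 4 muscle isoforms with an entry and 6 of the 6 ubiquitous ones held at least 1 match.

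Most members were above day 0 early in the wound and most were below it at the end, while the muscle isoforms Pygm, Pfkm, Pgam2 and Eno3 were below it on all 6 days. In edgeR's quasi-likelihood test, with p-values adjusted after Benjamini and Hochberg for all genes tested (call at an adjusted p under 0.05), 24 of the 39 were higher on day 3 than on day 0 (61.5%, against 31.8% of all genes tested) and 11 were lower (28.2%, against 34.8%). On day 5 the counts were 24 higher and 8 lower, where 29% and 30.6% of all genes were called. On day 7 they were 12 and 14, beside 25.6% and 24.8% of all genes. Day 10 had 10 higher and 19 lower, beside 23.5% and 26.9%. On day 12 only Hk3, Pgam1 and Hif1a were higher and 27 of 39 were lower (69.2%), beside 21.7% and 25.6% of all genes. On day 14 the counts were 8 and 26, beside 28.2% and 34.5%. Over the 6 days in turn the median log2 fold change of the members was 0.45, 0.54, -0.03, -0.24, -0.51 and -0.47, while that of all genes tested stayed between -0.06 and 0.00. With day 0 replicates 1 and 4 left out the members' medians were 0.69, 0.66, 0.13, 0.08, -0.39 and -0.27, so the signs of days 7 and 10 rest on these libraries, and that of all genes lay between -0.03 and 0.02. These 6 comparisons share the day 0 libraries.

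Without day 0 replicates 1 and 4 the members called higher were, from day 3 to day 14, 27, 28, 17, 16, 5 and 10, beside 31.5%, 29%, 25.6%, 24.6%, 22.8% and 28.9% of all genes then tested. Those called lower were 9, 7, 14, 13, 26 and 21, beside 32.6%, 28.5%, 22.3%, 24.8%, 24.3% and 32.7%. The 5 higher on day 12 were Hk3, Pgam1, Hif1a, Eno1 and Car12, and that count was also 5 when either of these libraries alone was left out. With both left out, 167 calls of a member on a day were kept, 19 were lost and 26 were gained. The log2 fold changes of a gene moved by nearly the same amount on every day. Pdk4 and Hk2 moved up most, by 0.77 and 0.61, followed by Slc2a4 (0.42), Slc16a3 (0.41), Car9 (0.40), Pygm (0.39), Pfkm (0.38), Car12 (0.36), Gys1 (0.35), Eno3 (0.34), Aldoa (0.31), Pkm (0.30), Gapdh (0.28), Bnip3 (0.26) and Pgam2 (0.25). Adm moved the other way, by -0.29, as did Pygl (-0.23), while Hif1a, Pgam1 and Pfkl moved by -0.045 to -0.025. Gpi1 and Pgk1 moved up by 0.24 and 0.23, and the other members by -0.105 to 0.218. By the criteria of the study, a log2 change beyond 1.5 up or down at an unadjusted P under 0.05, 11 members were higher and 4 lower on day 3 (6.5% and 12.4% of all genes tested), and 9 and 4 on day 5 (5.61% and 8.31%). Only Slc2a3 was higher and 4 were lower on day 7 (4.66% and 4.74%). On days 10, 12 and 14 no member was higher by them (4.33%, 3.89% and 5.15% of all genes), since the 10, 3 and 8 members called by adjusted p had smaller fold changes. The lower members by these criteria were Pygm alone on day 10 (5.14% of all genes), 6 on day 12 (3.51%) and 6 on day 14 (8.83%). On both of these days they were Pfkm, Pgam2, Eno3, Pygm and Aldoa, with Pdk4 on day 12 and Slc16a3 on day 14. By the same criteria, with day 0 replicates 1 and 4 left out, 11, 8, 1, 0, 0 and 0 members were higher over the 6 days, beside 7.77%, 6.88%, 6.27%, 5.99%, 5.72% and 6.87% of all genes then tested. The lower ones were 4, 4, 4, 0, 3 and 5, beside 12.4%, 8.35%, 5.1%, 5.87%, 3.82% and 9.45%. On day 10 Pygm was then at -1.31, on day 12 only Pygm, Pgam2 and Eno3 passed, Eno3 at the limit itself, and on day 14 Aldoa and Slc16a3 no longer passed (-1.26 and -1.31) while Adm did (-1.58).

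**Figure D1:**
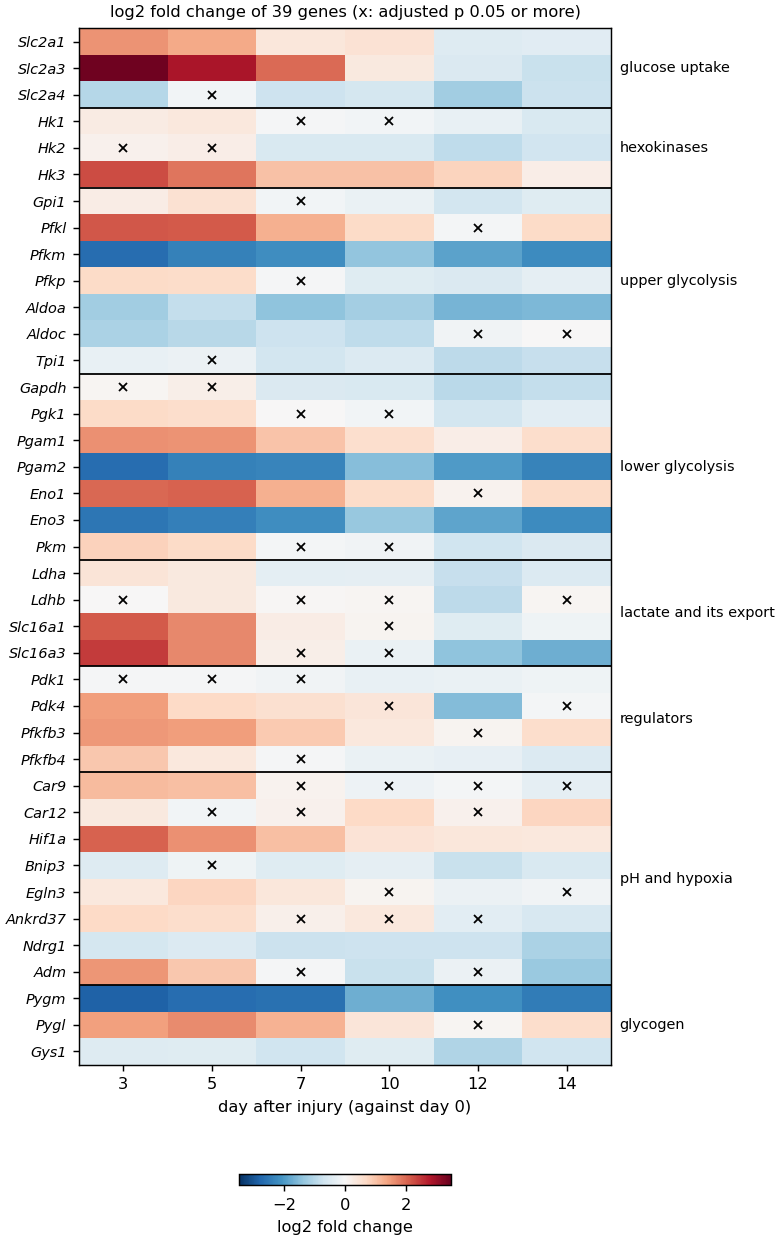
Each cell is the log2 fold change of a gene (rows, grouped by role) on a day of the wound against day 0 (columns), red for higher and blue for lower, and a cross marks an adjusted p of 0.05 or more in edgeR. Slc2a3, Slc16a3, Hk3, Pfkl and Hif1a are red on days 3 and 5, while Pfkm, Pgam2, Eno3 and Pygm are blue on all 6 days.

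The muscle isoforms Pygm, Pgam2, Pfkm and Eno3 had the 4 lowest log2 fold changes of the 39 members on each of the 6 days, and their ubiquitous partners rose on day 3. This held without day 0 replicates 1 and 4 on 5 of the 6 days, and on day 10 Adm (-1.07) lay below Pfkm and Eno3 (-0.99 and -0.97). Pygm, which releases glucose units from glycogen in muscle, was at 509, 331, 345 and 584 FPKM in the 4 day 0 libraries and at 52.2, 63.3, 65.5 and 59.9 on day 3. No library of a later day reached the lowest of day 0, the highest being 162 on day 10. In bulk RNA such as this, fewer cells of a type and less RNA per cell cannot be told apart. Its log2 fold change was -2.82 ± 0.14 (SE) on day 3 (edgeR, adjusted p = 4.16e-16), -1.71 on day 10 and -2.45 on day 14. Without day 0 replicates 1 and 4 these 3 values were -2.43, -1.31 and -2.06. Pygl, the liver form found also in immune cells, went the other way, from 20.1, 28.4, 28.5 and 19.5 FPKM on day 0 to 57.0, 62.8, 65.8 and 64.0 on day 3. It was highest on day 5, at 72.5 to 75.2 FPKM, with a log2 fold change of 1.65 ± 0.09 (edgeR, adjusted p = 7.13e-15). Pygb, a further phosphorylase gene outside the pairs, did not rise with Pygl. Its mean was 35.7 FPKM on day 0 and 20.1 on day 3, and it was called lower on days 3 and 5.

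Phosphofructokinase commits glucose to glycolysis, and its muscle subunit Pfkm was at 215, 153, 151 and 271 FPKM on day 0 and at 26.7, 30.4, 31.2 and 31.6 on day 3. The groups did not overlap, and the log2 fold change was -2.66 ± 0.13 (edgeR, adjusted p = 1.87e-16). The liver subunit Pfkl was at 10.5, 9.91, 10.5 and 9.08 FPKM on day 0 and at 40.7, 46.0, 43.9 and 43.4 on day 3, and was as high on day 5 (42.3 to 44.4). Its log2 fold changes were 2.18 and 2.16 on these days. It was then 22.2 to 25.8 FPKM on day 7 and 10.3 to 10.9 on day 12, when it was not called against day 0 (log2 fold change -0.06), and 16.3 to 18.5 on day 14. The platelet subunit Pfkp rose less, from 17.8, 19.5, 20.4 and 16.2 FPKM to 27.6, 27.8, 27.5 and 29.2 on day 3 (log2 fold change 0.66 ± 0.06), and was below day 0 on days 10 to 14, by 0.43, 0.50 and 0.32 on the log2 scale.

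Phosphoglycerate mutase and enolase, which carry out the steps before pyruvate kinase, showed the same opposition. The muscle mutase Pgam2 was at 343, 282, 292 and 439 FPKM on day 0 and at 43.7, 48.9, 56.7 and 54.8 on day 3 (log2 fold change -2.68 ± 0.14). The ubiquitous Pgam1 was at 30.9, 29.2, 34.8 and 28.8 FPKM on day 0 and at 84.4, 87.7, 96.1 and 93.5 on day 3 (log2 fold change 1.61 ± 0.07). Pgam1 stayed above day 0 to the end, by 0.23 on day 12 and 0.62 on day 14, and was 1 of the 3 members higher on day 12. Eno3, the muscle enolase, was at 173, 120, 124 and 197 FPKM on day 0 and at 21.0, 25.1, 27.6 and 28.1 on day 3. Eno1 was at 123, 104, 109 and 112 FPKM on day 0, close to the lower 2 Eno3 libraries, and at 403, 441, 454 and 442 on day 3. By day 5 the log2 fold changes of Eno1 and Eno3 were 2.08 ± 0.07 and -2.40 ± 0.13 (edgeR, adjusted p = 2.47e-19 and 4.33e-15). Eno1 and Pgam1 have near-identical gene copies in the mouse genome and how reads that match several places were counted is not given, so their levels are uncertain.

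Of the glucose transporters, Slc2a4, the insulin-responsive carrier of muscle and fat, was at 51.2, 33.1, 34.4 and 60.6 FPKM on day 0 and at 18.6, 22.5, 23.3 and 21.5 on day 3. It was then back at 39.9, 38.8, 41.1 and 44.2 on day 5, inside the day 0 range (log2 fold change -0.09 ± 0.12, edgeR, adjusted p = 0.542), and at 26.7 to 27.8 on day 7. Without day 0 replicates 1 and 4 the day 5 value was called higher (0.33, edgeR, adjusted p = 0.000346), and the fall on other days was smaller. The log2 fold change was -1.01 on day 3 and -0.61 on day 10 with all libraries, and -0.59 and -0.20 without replicates 1 and 4. Slc2a1, the basal carrier of most cells, was at 19.6, 15.1, 15.2 and 15.4 FPKM on day 0 and at 48.3, 46.7, 45.3 and 46.5 on day 3 (log2 fold change 1.57 ± 0.08, edgeR, adjusted p = 1.2e-15). By day 12 it was below day 0, at 12.9 to 13.9 FPKM, and the log2 fold change was -0.44 ± 0.08.

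**Figure D2:**
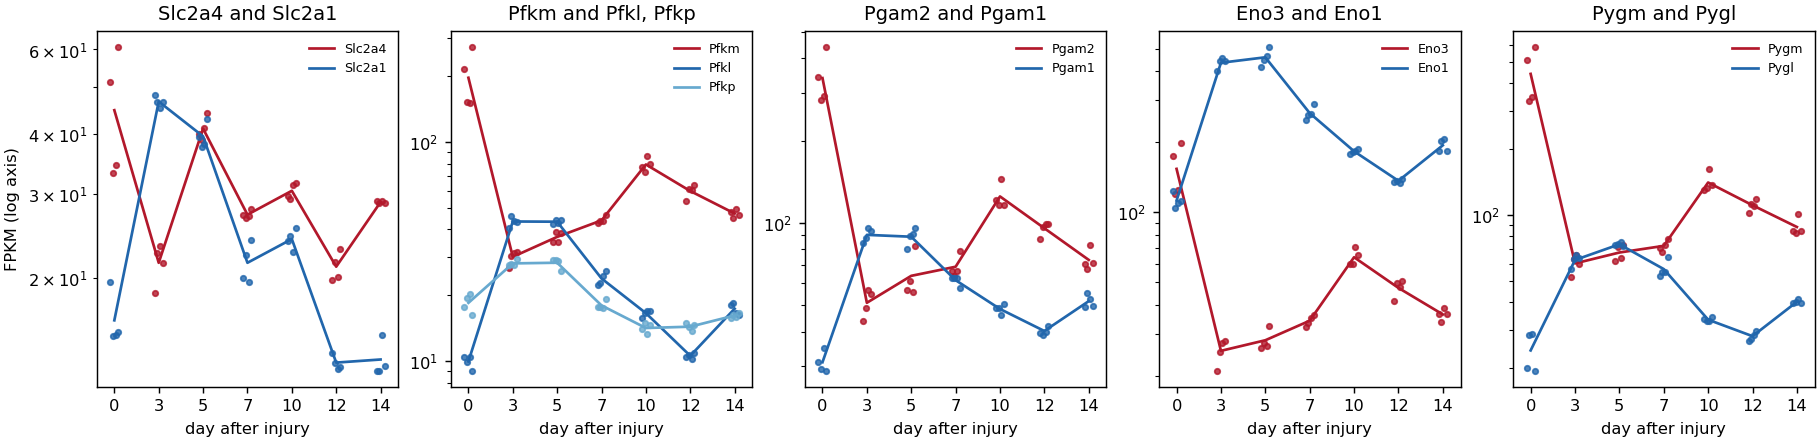
FPKM on a log axis in each library (points) and the mean of 4 libraries (lines) by day, with the muscle isoform in red and its ubiquitous partners in blue; days are evenly spaced. From day 0 to day 3 each red line drops and each blue line rises, Pygm from 442 to 60.2 FPKM and Pygl from 24.1 to 62.4.

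The ratio of muscle to ubiquitous isoform was taken within each library, which removes its depth. On day 0 every library had more of the muscle isoform in all 6 pairs: the ratio was 14.4 to 29.8 for Pfkm to Pfkl, 7.4 to 16.7 for Pfkm to Pfkp, 8.39 to 15.2 for Pgam2 to Pgam1, 11.7 to 29.9 for Pygm to Pygl, 2.2 to 3.93 for Slc2a4 to Slc2a1 and 1.14 to 1.76 for Eno3 to Eno1. As the level of Eno1 is uncertain, so is its order with Eno3 on day 0. On day 3 the Pfkm to Pfkl ratio was 0.657, 0.662, 0.71 and 0.729, a mean 27.6-fold under day 0, so that the ubiquitous isoform was the more abundant. The order was turned in the same way on day 3 for Pgam2 to Pgam1 (0.518 to 0.59), Slc2a4 to Slc2a1 (0.385 to 0.513) and Eno3 to Eno1 (0.0521 to 0.0635, 23.0-fold under day 0). Pygm to Pygl (0.916 to 1.01) and Pfkm to Pfkp (0.969 to 1.13) were near equal. Of the 36 comparisons of a pair on a later day with day 0, 35 had lower ratios with no overlap of libraries (two-sided exact permutation test, p = 0.0286, the smallest that 4 against 4 allows, adjusted p = 0.0294 over 36). The one that overlapped was Slc2a4 to Slc2a1 on day 14, at 1.91 to 2.26 (exact permutation test, p = 0.143).

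The way back was partial and not even. On day 10 the Pfkm to Pfkl ratio was 4.39 to 5.11 and the Pygm to Pygl ratio 3.88 to 4.93, and on day 12 they were 5.13 to 5.9 and 3.81 to 4.1. On day 14 the mean ratio was under that of day 12 for every pair but Slc2a4 to Slc2a1, a difference that was not tested, with Pfkm to Pfkl at 2.44 to 3.0, Pgam2 to Pgam1 at 1.23 to 1.57 and Pygm to Pygl at 2.07 to 2.45. On that day the Pfkm to Pfkl ratio was 7.01-fold and the Pygm to Pygl ratio 8.23-fold under day 0, or 5.43-fold and 5.42-fold without day 0 replicates 1 and 4. Of the 6 pairs only Pygm to Pygl moved by over 1.5 times when these were left out, as its day 0 ratio was 25.3 and 29.9 in replicates 1 and 4 and 11.7 and 12.1 in the others. Eno3 stayed below Eno1 in all 24 libraries of the later days, with its highest ratio at 0.389 on day 10. All 35 differences kept their direction and lay apart when day 0 replicates 1 and 4 were left out, with 2 libraries against 4 (smallest exact permutation p 0.0667).

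The muscle markers moved with these genes. All 12 were lower than day 0 on each of the 6 days, none was at 0 in any library, and their summed level was 14500 to 24200 FPKM on day 0 and 2990 to 3870 on day 3, then 6910 to 8460 (day 10), and 3960 to 4580 at the end. Their part in the fall of the muscle isoforms was not tested beyond the values that follow. Their mean log2 level was 9.8 on day 0 and 7.24 on day 3, a difference of -2.56, and the difference from day 0 was -1.24 on day 10 and -2.08 on day 14. These 3 differences were -2.14, -0.82 and -1.66 without day 0 replicates 1 and 4. Over the 28 libraries, deviations from the day mean in log2 FPKM of Pfkm, Pygm, Eno3, Slc2a4 and Pgam2 correlated with those of the muscle markers. Pearson's r was 0.97 for Pfkm and Pygm, 0.95 for Eno3, 0.94 for Slc2a4 and 0.80 for Pgam2, and Spearman's rho was 0.95, 0.97, 0.95, 0.78 and 0.87. By 100000 permutations within days the adjusted p over 11 genes was 2.7e-05 for Pfkm, Pygm, Eno3 and Pgam2, where p was 1e-05, the smallest they can give, and 0.0002 for Slc2a4 (raw p = 9e-05). The adjusted p of rho was 2.7e-05 for the first 4 and 0.001 for Slc2a4. Without the 2 libraries farthest from the median, both of day 0, r was 0.96, 0.94, 0.92, 0.88 and 0.71, and over the 24 libraries of days 3 to 14 it was 0.94, 0.93, 0.93, 0.71 and 0.83.

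Among the ubiquitous partners Eno1 also correlated (r = 0.53, rho = 0.61, permutation adjusted p = 0.01 and 0.0069, r = 0.56 without the 2 farthest libraries). Pfkp had r = -0.71 (permutation adjusted p = 0.02) and rho = -0.53 (adjusted p = 0.056), but over the 24 libraries of days 3 to 14 r was -0.33 (permutation adjusted p = 0.19). Slc2a1, Pfkl, Pgam1 and Pygl had r of 0.30, -0.07, -0.13 and -0.63, with rho of 0.16, 0.17, 0.06 and -0.06 and permutation adjusted p from 0.45 to 0.88 for r. For Pygl r turned to 0.49 over days 3 to 14 (permutation adjusted p = 0.013). On day 0, replicates 1 and 4 had the lower Pygl, 20.1 and 19.5 FPKM against 28.4 and 28.5.

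Set against the mean log2 level of the muscle markers in the same library, a comparison added after the data were seen, Pfkm, Pgam2 and Eno3 mostly overlapped with day 0 when all 4 day 0 libraries were used. Their differences from day 0 lay between -0.19 and 0.21 on the log2 scale, and only Pfkm (0.21) and Eno3 (0.20) on day 7 lay apart. With day 0 replicates 1 and 4 left out, which leaves 2 day 0 libraries close to each other, the differences lay between -0.39 and 0.12 and only Pfkm on day 14 and Pgam2 on days 5 and 7 still overlapped, so this overlap rests on replicates 1 and 4. Pygm was below day 0 relative to the markers on all 6 days, by 0.20 to 0.38 on the log2 scale, at -0.20 on day 14 and -0.38 on day 10. Slc2a4 was above it on all 6 days, by 1.55, 2.30, 1.65, 0.73, 0.59 and 1.49 in turn. The 5 brown fat markers were also highest on day 5 and lowest of the wound days on day 12, with median sums of 270 FPKM on day 0 and of 1190, 1680, 955, 656, 172 and 900 on the 6 later days, and 4, 4, 4, 4, 2 and 5 of them called higher and 1, 1, 1, 0, 2 and 0 lower. The 4 white fat markers had median sums of 902 on day 0 and 706 to 1090 later, with 0, 0, 0, 0, 0 and 2 called higher and 2, 2, 0, 2, 3 and 0 lower. The part of fat in the Slc2a4 levels was not tested. Gys1, the glycogen synthase of muscle and many other tissues, was above it by 0.76 to 2.08, and Aldoa, the main aldolase of muscle and of many other cells, by 0.66 to 1.53 on days 3, 5, 7 and 14. The values that lay apart had p = 0.0286 in the exact permutation test, 0.05 after adjustment over 42, so none was under the threshold.

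**Figure D3:**
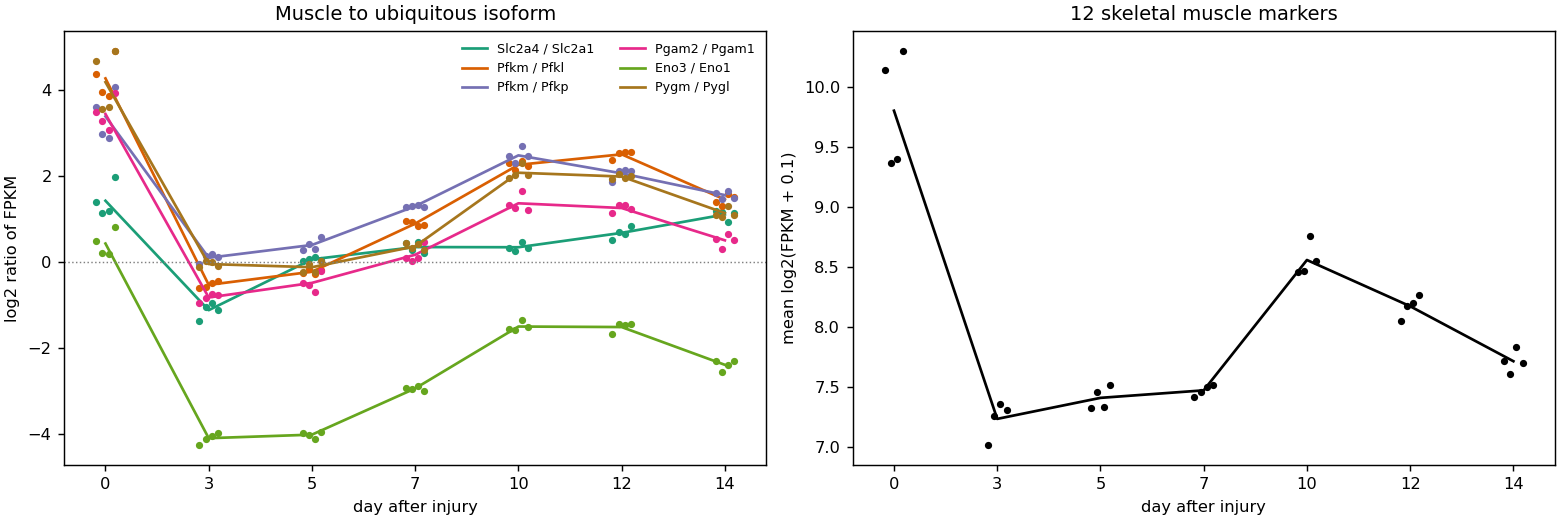
Left, log2 ratio of FPKM of muscle to ubiquitous isoform in each library (points) and its mean (lines), with 0 as a dotted line of equal levels; right, the mean log2(FPKM + 0.1) of 12 skeletal muscle markers in the same libraries. Both panels are low on days 3 and 5, higher on day 10 and lower again on day 14, except for Slc2a4 to Slc2a1, which is highest of the later days on day 14.

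Among the other uptake and first-step genes, those known from leukocytes rose most. Slc2a3, a high-affinity glucose carrier of neurons and white cells, was at 1.46, 1.22, 1.31 and 1.48 FPKM on day 0 and at 12.6, 13.5, 13.8 and 16.1 on day 3. Its log2 fold change of 3.42 ± 0.10 was the largest rise of the 39 on that day (edgeR, adjusted p = 6.04e-21). It was still at 4.75 to 6.04 on day 7, only 0.33 above day 0 on the log2 scale on day 10 (1.57 to 1.96) and below it on day 14 (0.798 to 0.968). Hk3, the hexokinase of myeloid cells, was at 2.83, 2.57, 2.31 and 2.63 FPKM on day 0 and at 11.9, 13.0, 11.7 and 11.8 on day 3, and like Pgam1 and Hif1a it was called higher than day 0 on all 6 days. Its log2 fold change went from 2.28 to 0.79 on day 12 and to 0.24 ± 0.08 on day 14, a call lost without day 14 replicate 2 (0.21, adjusted p = 0.0521 in edgeR). The 6 neutrophil markers summed to 14.9 to 63.3 FPKM at the start and to 7460 to 9540 on day 3, then to 433 to 490 (day 10), 25.9 to 35.3 (day 12) and 29.3 to 36.9 (day 14). All 6 were called higher on days 3 to 10, against 1 higher and 1 lower on day 12 and 0 higher and 3 lower on day 14, and Ly6g was at 0 in every library of day 0 and day 12. For the 6 macrophage markers these 5 sums were 1280 to 1860, 3250 to 3390, 1820 to 1930, 1570 to 1710 and 727 to 816. They had 6, 6, 5, 2, 0 and 0 called higher and 0, 0, 0, 4, 4 and 6 lower on the 6 days in turn. Their part in the changes of Slc2a3 and Hk3 was not tested. Other cell types changed on day 3 as well. Called higher were 3 of 4 markers of wound edge keratinocytes, 3 of 3 of endothelium and 3 of 3 of erythrocytes. Called lower were 6 of 6 of the hair follicle, 4 of 5 of epidermis and 3 of 5 of dermal fibroblasts, with 1 higher. The part of these cells in the rise of the ubiquitous isoforms was not tested.

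Hk2, the insulin- and HIF-responsive hexokinase, differed among the day 0 libraries. It was at 22.5 and 28.7 FPKM in replicates 1 and 4 and at 12.8 and 12.4 in replicates 2 and 3. On day 3 it was 19.3, 21.1, 20.9 and 20.6 (log2 fold change 0.16 ± 0.16, not called), and on days 7 to 14 it was 11.0 to 15.2. Without replicates 1 and 4 it was called higher on days 3 and 5 (0.76 and 0.83). Calls of lower Hk2 on days 7 and 10 (both -0.52) turned to 0.09 without replicates 1 and 4 (edgeR, adjusted p = 0.387 and 0.386), and both were also lost without replicate 4 alone (-0.26). The day 12 value of -0.89 became -0.28, and the day 14 value of -0.67 became -0.06 and was no longer called. Hk1, the form found in most tissues, had log2 fold changes of 0.30 and 0.36 on days 3 and 5 and of -0.52 on day 14.

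The remaining enzymes of the path have no partner in the pairs. Pkm, which makes pyruvate, had log2 fold changes of 0.80 on day 3 and -0.69 on day 12, and Pgk1, which makes ATP earlier in the path, of 0.66 and -0.65. The day 12 values were -0.39 and -0.42 without day 0 replicates 1 and 4. Gpi1 was 0.27 higher on day 3 (0.51 without these replicates) and highest on day 5, at a mean of 191 FPKM against 136 on day 0. Its day 3 libraries overlapped those of day 0, and with the libraries of these 2 days only the call was lost (0.25, edgeR, adjusted p = 0.0743). Aldoa had the highest FPKM of the members, a level that is uncertain for the reason given below for Gapdh. It was at 1200 to 1790 FPKM on day 0 and lower on all 6 days, by 0.84 on day 5 (log2 fold change -0.84, or -0.53 without day 0 replicates 1 and 4) to 1.62 on day 12 (-1.62). Aldoc, the brain aldolase, was at 2.18 to 2.91 FPKM on day 0 and 1.02 to 1.37 on day 3, and was back inside or above that range on days 12 and 14. Tpi1, which interconverts the triose phosphates, was lower on every day but day 5 (-0.19 ± 0.08, edgeR, adjusted p = 0.0524). Its day 3 call (-0.27) was lost without day 0 replicates 1 and 4 (-0.05, adjusted p = 0.518 in edgeR), without day 0 replicate 4 alone (-0.10) and without day 3 replicate 1 (-0.19) or 2 (-0.205).

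Gapdh, a gene often used as a loading control and so used in the assays of the study, was not constant. It was at 89.9, 62.3, 64.3 and 89.8 FPKM on day 0, at 73.2, 80.3, 76.1 and 80.2 on day 3 and at 82.6, 88.9, 88.8 and 83.9 on day 5, with no call on either day (log2 fold changes 0.07 and 0.21, edgeR, adjusted p = 0.51 and 0.0606). From day 7 on it was lower, with 50.5 to 57.8 FPKM at first, 42.9 to 46.6 by day 12 and 44.2 to 52.4 by day 14. Its log2 fold change reached -0.94 ± 0.10 on day 12 (edgeR, adjusted p = 7.48e-09) and stood at -0.83 on day 14. The day 0 values in replicates 1 and 4 were the high ones. Without them Gapdh was called higher on days 3 and 5 (0.35 and 0.49, edgeR, adjusted p = 0.000216 and 2.79e-06) and the later falls were smaller, with -0.22, -0.25, -0.66 and -0.55 on days 7, 10, 12 and 14, all still called. Day 14 was also lower than day 3 (log2 difference -0.90 ± 0.10), and no library of these 2 days overlapped. Gapdh has many processed copies, and its level here, under that of Tpi1 and Aldoa, is uncertain for that reason, as are those of Ldha, Pgk1, Tpi1 and Aldoa.

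The lactate exporters had larger fold changes on day 3 than the dehydrogenases that make lactate. Ldha was at 201, 168, 171 and 223 FPKM on day 0 and at 236, 245, 260 and 259 on day 3 (log2 fold change 0.45 ± 0.07), and was lower from day 7 on, with -0.80 on day 12. The day 10 value of -0.31 became -0.14 without day 0 replicates 1 and 4 and was then not called (edgeR, adjusted p = 0.0835). Slc16a3 (MCT4), the exporter of strongly glycolytic cells, was at 12.3, 7.66, 7.54 and 12.7 FPKM on day 0 and at 48.1, 50.9, 53.9 and 57.7 on day 3 (log2 fold change 2.45 ± 0.13, edgeR, adjusted p = 1.96e-15). It then went below its start, to 4.0 to 4.34 on day 12 and 3.12 to 3.85 on day 14. The log2 fold change on day 14 was -1.72, or -1.31 without replicates 1 and 4, which held the higher day 0 values. Slc16a1 (MCT1), which carries lactate both ways, rose by 2.15 ± 0.06 on day 3, from 12.4 to 14.1 FPKM to 54.8 to 59.4, and was at 14.3 to 15.5 on day 10, with no call (0.10). Without day 0 replicates 1 and 4 that value was 0.18 and was called. Ldhb, the form that favours pyruvate, was called on 2 days, higher on day 5 (0.34) and lower on day 12 (-0.93). Its day 5 call was lost with the libraries of the 2 compared days only (0.32, edgeR, adjusted p = 0.0536). Without replicates 1 and 4 the day 5 value was 0.56, and Ldhb was also higher on days 3, 7, 10 and 14 (0.23 to 0.29).

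Of the regulators, Pfkfb3, which makes the activator of phosphofructokinase, rose by 1.52 ± 0.10 on day 3 and was above day 0 on all days but day 12 (0.10, not called). Pfkfb4, its relative, was 0.96 higher on day 3 and 0.48 lower on day 14 (log2 fold change -0.48, or -0.32 without day 0 replicates 1 and 4). Pdk4, a kinase that inhibits pyruvate dehydrogenase in the mitochondrion and is induced by fasting, was at 32.8, 23.9, 22.2 and 77.3 FPKM on day 0, with replicate 4 above the rest, and it is given by library for that reason, chosen after its values were seen. It was at 92.5 to 110 on day 3, above every day 0 library, and at 14.2 to 16.6 on day 12, below every one (log2 fold changes 1.45 ± 0.22 and -1.52 ± 0.22). On day 14 it was back at 36.8 to 46.4. Without day 0 replicates 1 and 4 the log2 fold changes of days 3 and 12 were 2.22 and -0.75, and those of days 10 and 14, which were not called with all libraries (0.42 and -0.06), were 1.19 and 0.71 and called. Pdk1, a kinase of the same family and a textbook HIF-1 target, was not called on days 3, 5 and 7, with 10.0 to 11.6 FPKM against 10.9 to 13.1 on day 0. It was called lower on days 10, 12 and 14 (log2 fold changes -0.26, -0.23 and -0.14). The day 14 call was lost without day 0 replicates 1 and 4 (-0.07, edgeR, adjusted p = 0.33).

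The genes of the hypoxia response did not move as one. Hif1a was at 21.0, 22.9, 22.5 and 21.2 FPKM on day 0 and at 86.1, 88.9, 87.2 and 91.7 on day 3, up by 2.07 ± 0.06 on the log2 scale (edgeR, adjusted p = 1.5e-21). It declined to 57.2 to 68.8 on day 5 and 43.3 to 47.4 on day 7, and stayed above all day 0 libraries to day 14 (28.6 to 32.4). Adm, the vasodilator adrenomedullin, was at 5.7, 7.83, 8.36 and 4.4 FPKM on day 0 and at 18.6, 19.5, 17.8 and 18.0 on day 3 (1.55 ± 0.15), and was lower on days 10 and 14, with -1.29 on day 14. Without day 0 replicates 1 and 4 these day 3 and day 14 values were 1.25 and -1.58, and it was called lower on days 7 and 12 as well (-0.32 and -0.49). Egln3, a prolyl hydroxylase that marks HIF for decay, was at 14.8, 10.5, 12.2 and 12.3 FPKM on day 0 and at 15.3, 14.8, 15.6 and 16.8 on day 3. It was highest on day 5, at 20.6, 18.9, 20.9 and 21.2 (log2 fold change 0.75 ± 0.09). Its lower value on day 12 (-0.22, edgeR, adjusted p = 0.046) was lost in 14 of the alternatives, among them without day 0 replicate 1 (-0.10) and without day 12 replicate 4 (-0.18).

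Car9, a carbonic anhydrase that is used as a hypoxia marker, was low throughout, with 0.78, 0.404, 0.405 and 0.532 FPKM (35 to 67 counts) on day 0 and 1.33, 1.04, 0.871 and 1.15 on day 3 (75 to 114 counts). It was called on days 3 and 5 (1.10 ± 0.21 and 1.06 ± 0.21) and on no later day. Car12, another carbonic anhydrase of the cell surface, took a different course, with 7.12, 4.41, 4.69 and 7.05 FPKM on day 0, then 8.9 to 10.3 by day 10 and 10.1 to 11.5 by day 14. Its day 14 log2 fold change of 0.76 ± 0.11 was the largest rise of that day, while the day 3 value of 0.33 was lost without day 0 replicate 2 (0.22, edgeR, adjusted p = 0.0642) or replicate 3 (0.24, adjusted p = 0.0582). Without replicates 1 and 4 the values of days 3 and 14 were larger, 0.69 and 1.12, and Car12 was called higher on all 6 days. Ankrd37, a small HIF-1 target, was higher on days 3 and 5 (0.70 and 0.61) and lower on day 14 (-0.55). The day 5 call was lost with the libraries of the 2 compared days only (0.595, edgeR, adjusted p = 0.0607). Without day 0 replicates 1 and 4 the day 14 call was lost (-0.43, edgeR, adjusted p = 0.0604) and day 10 was called higher (0.49, adjusted p = 0.0344). Bnip3, a mitophagy receptor, and Ndrg1, a stress and differentiation gene, are both known as hypoxia-induced, and went the other way. Ndrg1 was lower on all 6 days, from 69.7 to 81.0 FPKM on day 0 to 42.8 to 49.9 on day 3 and 37.5 to 39.8 on day 14. Bnip3 was lower on all but day 5 (-0.16, not called), with -0.45 on day 3 and -0.78 on day 12, and without day 0 replicates 1 and 4 the day 3 value was -0.19 and the calls of days 7 and 10 were lost (-0.17 and -0.05, edgeR, adjusted p = 0.0707 and 0.615).

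**Figure D4:**
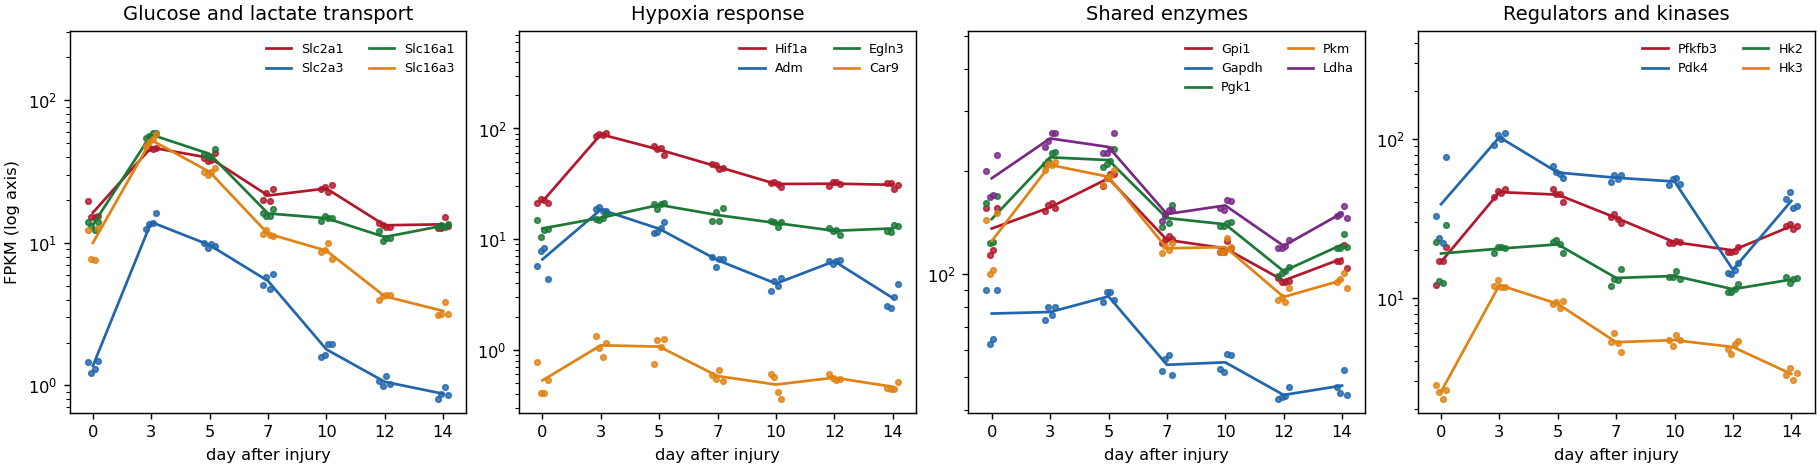
FPKM on a log axis in each library (points) and the mean of 4 libraries (lines) by day, evenly spaced, for transporters, hypoxia genes, shared enzymes, and regulators with hexokinases. Slc16a3 goes from a mean of 52.7 FPKM on day 3 to 3.33 on day 14, Hif1a from 88.5 to 31.0, and Gapdh from 77.4 to 47.1.

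In the glycogen group Gys1 was lower on all 6 days, with 31.8 to 52.8 FPKM on day 0, 26.0 to 30.5 on day 3 and a low of 21.2 to 23.3 at day 12 (log2 fold change -1.04 ± 0.11). Its calls of days 3, 5 and 10 (-0.45, -0.42 and -0.42) were lost without day 0 replicates 1 and 4 (-0.11, -0.07 and -0.07, edgeR, adjusted p = 0.238, 0.439 and 0.471). Among a further 16 tested genes of glycogen synthesis, breakdown and their control, the 6 days in turn had 3, 2, 2, 3, 1 and 4 higher and 12, 10, 10, 10, 11 and 11 lower. On day 3 this was 18.8% higher and 75% lower, beside 31.8% and 34.8% of all genes tested, and on day 14 it was 25% and 68.8%, beside 28.2% and 34.5%, shares whose difference was not tested. These counts without day 0 replicates 1 and 4 were 3, 2, 2, 3, 1 and 5 higher and 11, 10, 9, 9, 11 and 11 lower. Phka1 and Phkg1, subunits of the muscle phosphorylase kinase, and Ppp1r3a, the muscle glycogen-targeting subunit of a phosphatase, were lower on all 6 days, as were all 12 muscle markers, with log2 fold changes of -2.06, -1.28 and -2.68 on day 3, where Phka1 and Ppp1r3a had -1.78 and -2.38 without these replicates. The part of muscle content in the list was not tested. The higher ones on day 3 were Gbe1 (the branching enzyme, 0.99), Gyg (the glycogen primer) and Gys2 (the liver synthase). Gys2 was at 0.0264 to 0.156 FPKM on day 0 and 8.15 to 11.9 on day 3. Fat tissue can also express it, and 4 of 5 brown fat markers were higher and 1, Elovl3, was lower on the same day, with a sum of 252 to 338 FPKM on day 0 and 955 to 1240 on day 3, and their part in it was not tested.

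Among 20 other tested genes of glycolysis and pyruvate use, the 6 days in turn had 6, 8, 8, 8, 4 and 9 higher and 10, 9, 7, 6, 10 and 7 lower. On day 3 this was 30% and 50%, beside 31.8% and 34.8% of all genes tested, on day 12 20% and 50%, beside 21.7% and 25.6%, and on day 14 45% and 35%, beside 28.2% and 34.5%. With day 0 replicates 1 and 4 left out they were 7, 8, 10, 8, 6 and 8 higher and 10, 9, 6, 6, 8 and 6 lower. The higher ones on day 14 included Mpc1 and Mpc2, the carrier that brings pyruvate into the mitochondrion, at 0.18 and 0.15, and the day 14 call of Mpc2 was lost without these replicates (0.14, edgeR, adjusted p = 0.119). The day 3 log2 fold change of Mpc1 was 0.98. Among 17 other tested genes of the hypoxia response, the 6 days in turn had 6, 8, 6, 4, 1 and 1 higher and 5, 5, 6, 7, 7 and 10 lower. The day 3 shares, 35.3% and 29.4%, were near those of all genes (31.8% and 34.8%), and on day 14 they were 5.9% and 58.8%, beside 28.2% and 34.5%. With day 0 replicates 1 and 4 left out the counts were 7, 8, 6, 2, 2 and 1 higher and 5, 4, 5, 4, 9 and 9 lower. The median log2 fold change of these 17 was 0.08 on day 3 and -0.22 on day 14. Vegfa, which drives vessel growth, was at 9.98, 15.5, 16.0 and 13.8 FPKM on day 0 and at 27.3, 29.7, 26.5 and 30.1 on day 3 (1.10 ± 0.10). Hilpda, a lipid droplet gene induced by HIF-1, rose by 2.01 ± 0.13 to 27.1 to 32.7 FPKM. Both were chosen for mention after their values were seen.

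Within the wound itself, without use of day 0, 6 members were called higher and 28 lower when day 14 was set against day 3, where 34.2% and 32.8% of all genes tested were called. By the criteria of the study they were 0 and 9, beside 9% and 9.58% of all genes. The largest differences were those of Slc2a3 (-4.19 ± 0.10) and Slc16a3 (-4.16 ± 0.14), followed by Adm (-2.83), Slc16a1 (-2.30), Hk3 (-2.04) and Slc2a1 (-1.97). The 6 higher ones were Aldoc (1.14), Pfkm (0.47), Car12 (0.43), Pygm (0.37), Pgam2 (0.34) and Eno3 (0.34), so the muscle isoforms held 4 of the 6 places. Without day 14 replicate 3 the calls of Pgam2, Eno3 and Pygm were lost (0.26, 0.29 and 0.28, edgeR, adjusted p = 0.105, 0.058 and 0.0721) and 3 members were left, and those of Pgam2 and Eno3 were also lost without day 3 replicate 1 (0.30 and 0.28, adjusted p = 0.0631 and 0.053). In the joint test over the 6 wound days all 39 members differed (edgeR's quasi-likelihood F test, adjusted p under 0.05), as did 85.1% of all genes tested. Pdk1 had the largest adjusted p of the members in it, 0.00169.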

How the data were processed

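RNA from 28 libraries was sequenced, 4 of the day 0 control and 4 of each of 6 wound days. The authors deposited a table of gene counts and a table of FPKM values. The submitters' notes name fastp, R 3.2.0 and the build mm10, and the aligner, the counter and the strand setting are not given in the sources used here. The deposited FPKM were checked to be each count divided by a constant gene length and the library total. They therefore do not correct for composition. The labels number the control day 0, while the methods number the day of injury 1. The series text speaks of 5 repeats where 4 libraries a day were given.

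Groups came from the labels. Counts were tested in edgeR 4.0.16 (R 4.3.3) by the quasi-likelihood test with TMM factors, filterByExpr and all 28 libraries in 1 fit (21 residual degrees of freedom), each day against day 0, day 14 against day 3 and the 6 wound days jointly, with Benjamini-Hochberg adjustment over 18107 genes. Fold changes are log2 with standard errors. Levels are FPKM. Isoform ratios, with 0.1 added to each FPKM, were compared by exact two-sided permutation tests written in Python 3.11.15 with NumPy 2.4.6. Correlations were tested by 100000 permutations within days, with ranks from SciPy 1.17.1. Fits by edgeR, limma and DESeq2 were tried on simulated counts with changes on day 3 and the same spread in every library. The ratio, correlation and promoter steps were not tried in this way. No labels say that the libraries came from separate mice, so p-values measure the spread between these libraries. In edgeR the spread of a gene was estimated over all 28 libraries, while the day 0 libraries varied most (26.4% against 5.7 to 10.8%). Standard errors and p-values against day 0 can therefore understate the spread of day 0. No 2 libraries of a day agreed within counting noise. Alternatives were DESeq2 1.42.0, limma 3.58.1 on log2 FPKM, other scalings and filters, a replicate block and Xist as covariate. Fits on the libraries of the 2 compared days only, and fits with libraries left out, were also made.

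The members and all gene lists were chosen with earlier results of these data known. Genes described by library are the isoform pairs, Hk2, Ldha, Slc16a3, Hif1a, Car9, Egln3, Adm, Gapdh and, for each day against day 0, the 2 members with the largest increase and the 2 with the largest decrease among those called with a mean of at least 1 CPM in the higher group. Pdk4 was added to them after its values were seen. Other members were named for their roles. Promoter sequences are from RefSeq, with start sites as it gives them. Intervals and counts cover the sequencing of these libraries and not other wounds.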

Additional observations from a re-analysis of the deposited data

Results flagged for a closer look

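In 11 of 161 groups of 4 libraries, formed by the members described by library on each day, 1 library lay far from the other 3 by Dixon's test, where chance alone gives about 1 in 20, or 8.05. Replicate 1 of day 0 had the highest Slc2a1, 19.6 FPKM beside 15.1 to 15.4, and replicate 3 of day 14 had 15.2 beside 12.8 to 13.1. Day 14 replicate 3 was also the highest for Pygm, at 101 FPKM against 83.1 to 84.7, and for Slc16a3, at 3.85 against 3.12 to 3.18. Replicate 4 of day 5 had the lowest Pfkp, 25.9 FPKM against 28.8 to 29.1. Replicate 4 of day 7 had the highest Pfkp, 19.2 against 17.5 to 17.7, and the lowest Pgam1, 57.9 against 62.8 to 63.1. Replicate 3 of day 10 had the highest Hk2, 14.9 FPKM against 13.3 to 13.6, and the lowest Egln3, 13.0 against 14.2 to 14.5. Car9 was 0.509 FPKM in day 14 replicate 4 against 0.446 to 0.456, and Hk3 was 13.0 in day 3 replicate 2 against 11.7 to 11.9. The cause of these differences was not tested.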

How the results depend on the processing

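Of 4400 refits of the 220 called changes of the 39 members, 4272 kept their direction and their side of the threshold, 125 kept the direction only and 3 turned. Hk2 on days 7 and 10 turned to 0.085 without day 0 replicates 1 and 4, and Pdk1 on day 14 lay between -0.158 (without day 14 replicate 3) and 0.005 (without day 0 replicate 4) with 1 library left out. Leaving out day 0 replicates 1 and 4 also gave 16 members higher on day 10 and 5 on day 12. No composition normalization, and limma on FPKM with 1 or 0.1 added, each gave 7 higher on day 12, where 33.6%, 34.3% and 34.2% of all genes were then called higher, against 21.7% in edgeR with composition normalization. Without composition normalization the median log2 fold change of all genes moved from -0.04 to 0.11 on day 12 and from 0.04 to 0.22 for day 14 against day 3. By the study's criteria the 6 days in turn had 11, 9, 1, 0, 0 and 0 members higher and 4, 4, 4, 1, 6 and 6 lower, and day 14 against day 3 had 0 and 9 (9% and 9.58% of all genes), as fewer genes pass a fold limit. With 1 library left out, 3 to 5 members were higher on day 12 and 3 to 7 on day 14 against day 3. The correlation of Pygl with the muscle markers turned to 0.49, and that of Pfkp was -0.33 and no longer called, over days 3 to 14. All 36 isoform ratio results kept their direction. The 35 that lay apart from day 0 still did, and Slc2a4 to Slc2a1 on day 14 still overlapped. With same numbers paired, the smallest exact permutation p for 4 pairs is 0.125, so no such ratio could be called. Same-numbered libraries did not deviate together: their correlations lay between -0.07 and 0.05. With the replicate block in edgeR 219 of 220 changes kept their call and that of Egln3 on day 12 was lost (-0.21, adjusted p = 0.052). Fits on the libraries of the 2 compared days only lost more calls against day 0, all with the direction kept. Lost were Pdk4 (days 5 and 7), Hk2 (days 7, 10 and 14), Gpi1 (days 3 and 10) and Ankrd37 (days 5 and 14). So were Car12 (day 3), Ldhb (day 5) and Egln3 (day 12). Bnip3, Gys1, Pfkfb3 and Pfkfb4 lost day 10, and Pdk1, Pgk1 and Slc16a1 lost day 14. Car9, at 31 to 114 counts a library, is the member limited most by depth.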
